A study of Homo sapiens with 8 samples.

Results

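Transcript levels were described for 8 genes of fatty acid oxidation and its regulation by PPARA (PPARA, CPT1A, CPT2, ACADM, HADHA, PDK4, ANGPTL4 and PLIN2) in HuH7 cells, a line derived from a human hepatoma, that had been deprived of oxygen and glucose and then reperfused (OGD/R). The genes were chosen by name, for their known roles, with earlier results of these data already known. They are 8 of the 15745 named genes of the count table, and all 8 passed the filter on low counts. RNA-seq was made from 8 libraries of wildtype HuH7 cells that had all spent 6 h at 1% oxygen without glucose, followed by 6 h of normoxia. The medium of the reoxygenation period held DMSO in 4 libraries (I/R+DMSO) and the ginsenoside Rk2 at 20 µM in the other 4 (I/R+Rk2), so each comparison sets Rk2 against its solvent after OGD/R, in 1 cell line, at 1 dose and 1 time. Cells that had not gone through OGD/R were not analysed here.

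PPARA is a nuclear receptor that binds fatty acids and, with RXR as its partner, switches on genes for burning fat in the fasting liver. CPT1A and CPT2 carry long-chain fatty acids into mitochondria as carnitine esters, and ACADM and HADHA carry out steps of beta-oxidation there. PDK4, ANGPTL4 and PLIN2 are well-known PPARA target genes that act around this pathway: PDK4 turns off pyruvate dehydrogenase and so spares glucose, ANGPTL4 is a secreted inhibitor of lipoprotein lipase that also responds to low oxygen, and PLIN2 coats lipid droplets.

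In the GENCODE v29 annotation of hg38, PPARA lies at chr22:46150521-46243756 on the + strand, CPT1A at chr11:68754620-68844410 on the - strand and CPT2 at chr1:53196429-53214197 on the + strand. ACADM is at chr1:75724347-75787575 (+), HADHA at chr2:26190635-26244726 (-), PDK4 at chr7:95583499-95596491 (-), ANGPTL4 at chr19:8363289-8374373 (+) and PLIN2 at chr9:19108375-19149290 (-). Exons of ACADM overlap those of RABGGTB on the same strand. Exons of CPT2 overlap AL606760.2 and C1orf123, and exons of ANGPTL4 overlap RAB11B-AS1, all on the opposite strand. The strand setting of the counting is not given in the sources used here, so reads of these overlapping exons could be counted for either gene. The other 5 genes have no exon overlap.

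The 250 bases before the start that RefSeq gives in GRCh38.p14 are shown for the 3 genes that passed the test below, PLIN2, CPT1A and CPT2, as the DNA next to that start. Whether HuH7 cells use these starts was not tested, and the 3 genes as GENCODE draws them begin elsewhere, within the printed window for CPT1A and upstream of it for PLIN2 and CPT2. They are read 5′ to 3′ on the strand of the gene and end next to the start. Capitals mark ACGTG (the core that hypoxia-inducible factors bind), TATAAA (the TATA box), GGGCGG (the GC box) and AGGTCA (the half-site of nuclear receptors such as PPARA), each searched on both strands. PLIN2 is at chr9:19127493-19127742 (-), CPT1A at chr11:68844278-68844527 (-) and CPT2 at chr1:53196574-53196823 (+).
PLIN2: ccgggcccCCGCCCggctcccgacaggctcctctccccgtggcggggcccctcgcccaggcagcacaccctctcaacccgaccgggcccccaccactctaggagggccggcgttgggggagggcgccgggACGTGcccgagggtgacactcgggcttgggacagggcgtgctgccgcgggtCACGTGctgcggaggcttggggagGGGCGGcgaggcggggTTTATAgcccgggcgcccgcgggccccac
CPT1A: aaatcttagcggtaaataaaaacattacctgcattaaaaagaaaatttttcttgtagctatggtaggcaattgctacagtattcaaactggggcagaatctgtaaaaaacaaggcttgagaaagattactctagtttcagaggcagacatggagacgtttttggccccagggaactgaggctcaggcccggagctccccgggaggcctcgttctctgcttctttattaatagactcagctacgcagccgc
CPT2: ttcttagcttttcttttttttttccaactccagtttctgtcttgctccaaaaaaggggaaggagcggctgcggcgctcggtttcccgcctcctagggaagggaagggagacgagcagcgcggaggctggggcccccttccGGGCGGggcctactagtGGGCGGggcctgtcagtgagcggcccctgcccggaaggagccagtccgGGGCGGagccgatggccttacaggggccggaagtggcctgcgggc
In PLIN2, ACGTG was found at 3 places, beginning 120, 69 and 68 bases before the start, the last 2 on opposite strands of 1 palindrome. TATAAA was found at 29 bases, on the strand opposite to the gene. CPT2 held 3 GC boxes and neither ACGTG nor TATAAA, and the CPT1A stretch held none of the motifs. ANGPTL4, which is not printed, also held an ACGTG, at 234 bases, and TATAAA at 29 bases, the latter on the strand of the gene. Of all 35116 promoter windows, 18.5% held ACGTG, 10.7% TATAAA, 42.6% a GC box and 6.3% the palindrome CACGTG, on either strand. The half-site of nuclear receptors was in 12.1% of all windows and in none of the 9 windows searched for the 8 genes (PPARA has 2 starts), which says only that these letters are not within these 250 bases.

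Library totals ran from 16357129 counts to 30277046, the latter in I/R+Rk2 replicate 1. Hepatocyte markers were as the label states, with 14 of 14 tested and AFP at a mean of 5937.0 normalized CPM in I/R+DMSO. However, APOB was called higher in I/R+Rk2 (log2 fold change 0.61) and FGB lower (-0.27). Corrected for gene length, APOB was still called (0.30, edgeR adjusted p = 0.0112) and FGB was not (-0.23, edgeR adjusted p = 0.0722). Of 16 stromal, endothelial and immune markers, DCN and PTPRC were listed at 0 FPKM in all libraries, and their summed level (359 to 411 FPKM in I/R+Rk2, 367 to 408 in I/R+DMSO) was nearly all LYZ, at means of 351.4 FPKM in I/R+DMSO and 338.3 in I/R+Rk2, and CD68. CD14, with 5 to 24 counts, was called lower in I/R+Rk2 (-1.25). On the first principal component (39.1% of the variance) the groups did not overlap, and on the second (15.9%) I/R+DMSO replicate 1 stood at 78.7 and the other 3 I/R+DMSO libraries between -48.6 and -41.4. Across tested genes the log2 fold change went with gene length (Spearman rho 0.388 over 12898 genes, which are not independent replicates). For genes named as called, values corrected for length are therefore given where they change the call. Of the called genes 60.2% were higher in I/R+Rk2, against 70.6% when scaled by library size only, 48.8% with upper quartile scaling and 45.7% after length correction.

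Rk2 went with a difference in 3 of the 8 genes. PLIN2 rose by 14.8% and CPT1A by 16.6%, CPT2 fell by 16.4%, and PPARA, ACADM, HADHA, PDK4 and ANGPTL4 did not pass the test. The test was edgeR's quasi-likelihood test on counts with Benjamini-Hochberg adjustment over 12910 genes, and a gene was called at an adjusted p below 0.05. Of all tested genes 18.2% were called, 11.0% higher and 7.24% lower in I/R+Rk2. Against this background, 2 of the 8 genes were called higher and 1 lower. None of the 8 was called with a change above 1.5-fold, a limit that 3.04% of all tested genes passed, and the count was also 0 at an unadjusted p below 0.05 in edgeR, in DESeq2 and in limma's voom. Normalized CPM (counts scaled by library size and edgeR's TMM factors) did not overlap between the groups for 4 of the 8 genes, CPT1A, CPT2, PDK4 and PLIN2, against 28.3% of all tested genes. The median log2 fold change was 0.11 over the 8 genes and -0.002 over all tested genes. In bulk RNA a change in the share of cells that express a gene and a change of RNA per cell cannot be told apart.

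**Figure D1:**
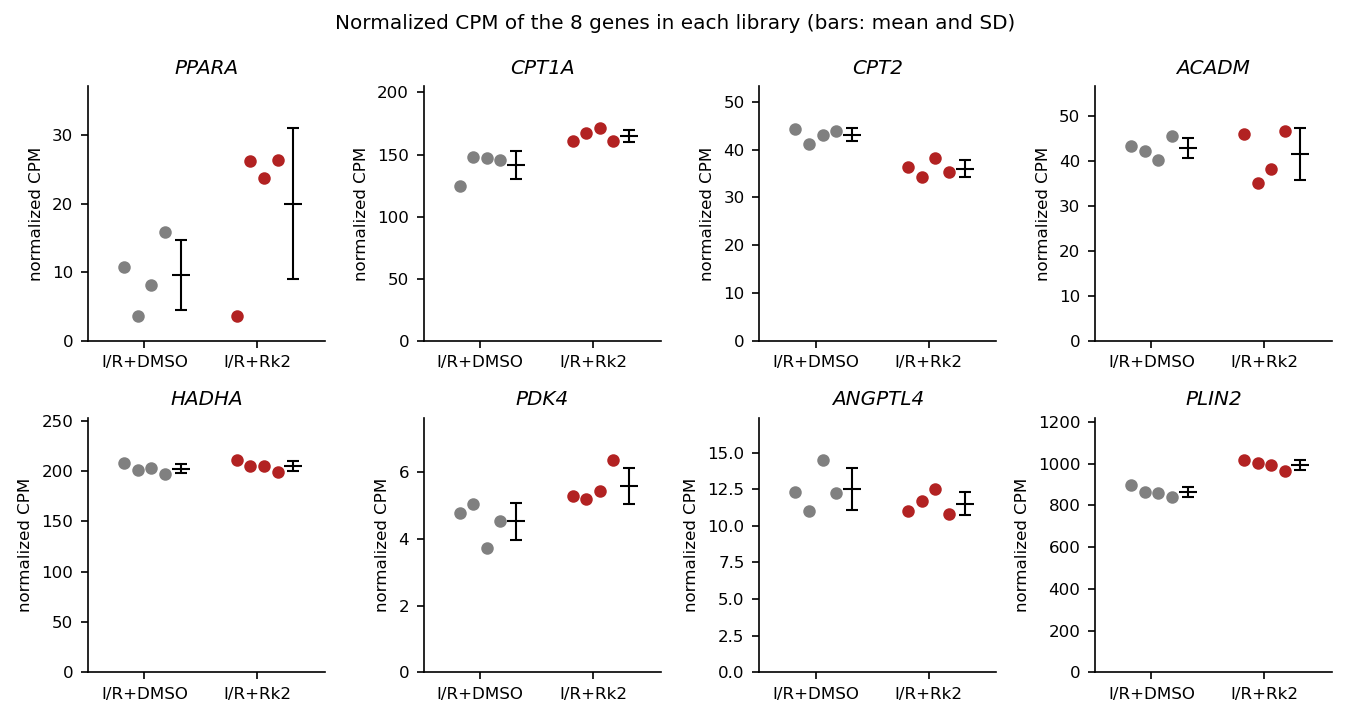
Normalized CPM (vertical axes, linear and from 0) of the 8 genes in 4 I/R+DMSO libraries (grey) and 4 I/R+Rk2 libraries (red), drawn from replicate 1 on the left to replicate 4 on the right, with the mean and SD beside them. All I/R+Rk2 points of PLIN2, CPT1A and PDK4 lie above those of I/R+DMSO, all those of CPT2 lie below, and PPARA has 1 low I/R+Rk2 library at 3.605 CPM.

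The levels of the 8 genes relative to each other were read from FPKM, which are scaled by gene length. PLIN2 was the most abundant, with means of 427.5 ± 8.6 FPKM in I/R+DMSO and 529.1 ± 11.5 in I/R+Rk2 (SD, n = 4 each), followed by HADHA, CPT1A, ACADM, CPT2 and ANGPTL4, with PPARA and PDK4 lowest. PLIN2 stood 7.46 times above HADHA in I/R+DMSO and 9.1 times in I/R+Rk2, by the ratio of mean FPKM. The ranges of CPT1A and ACADM overlapped in I/R+DMSO, where ACADM was above CPT1A in replicate 1, and did not overlap in I/R+Rk2. The FPKM ranges of PPARA and PDK4 overlapped in both groups. All other neighbours in this order were separate in all 8 libraries.

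PPARA, the receptor, was a low transcript with large differences between libraries. Its normalized CPM was 10.78, 3.58, 8.10 and 15.91 in I/R+DMSO replicates 1 to 4, and 3.605, 26.24, 23.72 and 26.41 in I/R+Rk2. The library labelled I/R+Rk2 replicate 1 was as low as the lowest I/R+DMSO library, and the other 3 I/R+Rk2 libraries were above every I/R+DMSO library. The log2 fold change was 1.05 with a 95% interval from -0.43 to 2.53 (SE, the standard error, 0.638, edgeR adjusted p = 0.286), so this design could not separate a fall from a rise of several fold. Without I/R+Rk2 replicate 1 the log2 fold change was 1.41 (edgeR adjusted p = 0.0705), and no alternative brought PPARA past the threshold.

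The FPKM of PPARA told a different size of difference. They were 2.137, 1.298, 1.079 and 2.157 in I/R+DMSO and 1.994, 2.43, 2.233 and 2.446 in I/R+Rk2, means of 1.668 ± 0.561 and 2.276 ± 0.211 (SD, n = 4 each; exact two-sided permutation p = 0.114). The ratio of these means was 1.365, against a fold of 2.072 from the counts. In I/R+Rk2 replicate 1, which had 110 counts, the FPKM was close to that of the other 3 libraries, which had 392 to 522 counts. The gene length implied by counts and FPKM together (the ratio of the unnormalized CPM to FPKM, in kilobases) was 1822 bases in that library and 10731 to 10958 in the other I/R+Rk2 libraries, and ran from 2747 to 7403 in I/R+DMSO. Between libraries the implied length of PPARA varied more than that of 99.8% of 12116 genes. GENCODE v29 lists 12 PPARA transcripts of 278 to 9995 bases. How the 2 tables divide reads between transcripts is not given in the sources used here, and its part in the PPARA values was not tested.

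**Figure D2:**
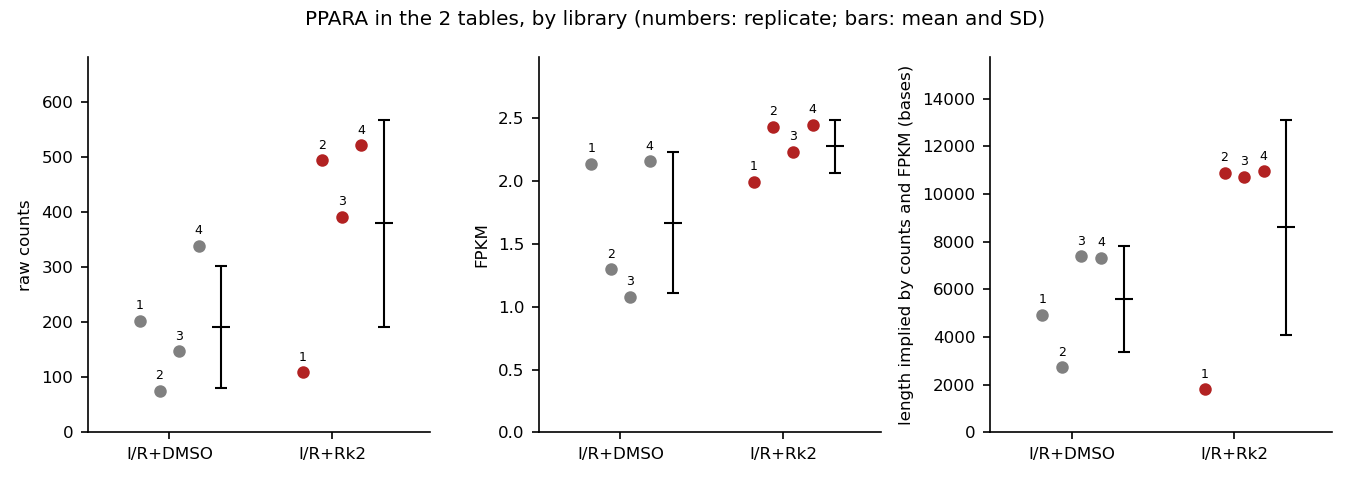
PPARA in each library as raw counts (left), FPKM (middle) and the length in bases implied by both (right), on linear axes from 0, with replicate numbers over the points and the mean and SD beside them. In I/R+Rk2 replicate 1 the count is 110 and the implied length 1822 bases, while its FPKM of 1.994 is near the other 3 I/R+Rk2 libraries.

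Among the 3 PPAR receptors PPARA held the smallest share of the summed FPKM. It held 3.94% ± 1.33 in I/R+DMSO and 5.32% ± 0.307 in I/R+Rk2 (SD, n = 4 each; exact two-sided permutation p = 0.0571, adjusted over 4 families 0.228). PPARG, the receptor best known from fat cells, held 88.0% and 86.2%, and PPARD 8.03% and 8.45%. In edgeR the log2 fold change of PPARG was -0.07 (95% interval -0.17 to 0.04) and that of PPARD was 0.05 (-0.14 to 0.25), and neither passed the test.

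In the carnitine shuttle the outer enzyme was called higher, though not after length correction, and the inner enzyme lower. SLC25A20, the carnitine-acylcarnitine carrier, named here after its values were seen, was not called. Its log2 fold change was 0.004 with a wide 95% interval from -0.40 to 0.41 (edgeR). CPT1A, on the outer mitochondrial membrane, makes the acylcarnitines and is the step that controls the entry of long-chain fatty acids. Its normalized CPM was 124.7, 147.7, 147.6 and 145.7 in I/R+DMSO and 160.7, 167.1, 171.0 and 160.9 in I/R+Rk2. All I/R+Rk2 libraries were above all I/R+DMSO libraries, and I/R+DMSO replicate 1 was below its group. The means were 141.5 ± 11.2 and 164.9 ± 5.06 (SD, n = 4 each), a rise of 16.6% (log2 fold change 0.22, SE 0.0605, edgeR adjusted p = 0.0387). In FPKM the means were 24.08 ± 2.51 and 30.08 ± 0.922 (SD, n = 4 each). The call was close to the threshold: corrected for gene length the log2 fold change of CPT1A was 0.08 (adjusted p = 0.285), with upper quartile scaling it was 0.19 (adjusted p = 0.0533), and with any of the 7 libraries other than I/R+DMSO replicate 1 left out the adjusted p ran from 0.0542 to 0.0954. Without I/R+DMSO replicate 1 it was 0.17 (adjusted p = 0.0179).

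CPT2, on the inner membrane, turns the acylcarnitines back into acyl-CoA. Its normalized CPM was 44.2, 41.22, 42.98 and 43.87 in I/R+DMSO and 36.28, 34.19, 38.31 and 35.27 in I/R+Rk2. The groups did not overlap. The means were 43.07 ± 1.34 and 36.01 ± 1.75 (SD, n = 4 each), with a log2 fold change of -0.26 (SE 0.0528, edgeR adjusted p = 0.0139). CPT2 passed the test without each library in turn and after length correction (log2 fold change -0.31, adjusted p = 0.00631). On log2(FPKM + 1) with limma the log2 fold change was -0.22 (adjusted p = 0.0813) and did not pass, although the FPKM groups (10.22 to 12.1 in I/R+Rk2, 12.82 to 14.23 in I/R+DMSO) were also separate.

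The ratio of CPT1A to CPT2 in FPKM was 1.56, 1.97, 1.78 and 1.92 in I/R+DMSO and 2.59, 2.88, 2.57 and 2.63 in I/R+Rk2. Every I/R+Rk2 library was above every I/R+DMSO library. On the log2 scale of normalized CPM the ratio was 0.48 higher in I/R+Rk2 (exact two-sided permutation p = 0.0286, the smallest that 4 libraries against 4 allow, and 0.0889 adjusted over 28 pairs of the 8 genes). All 28 pairs were compared in this way. The ratio differed without overlap in 9 pairs, and no pair had an adjusted p below 0.05. Pairs of other genes were not compared, and 28.3% of all tested genes taken singly did not overlap. These CPM ratios are not corrected for gene length. After that correction the log2 fold changes were 0.08 for CPT1A, -0.31 for CPT2 and -0.04 for ANGPTL4. Beside CPT1A with CPT2, the other 8 pairs without overlap were CPT1A with HADHA and ANGPTL4, CPT2 with HADHA, PDK4 and PLIN2, HADHA with PDK4 and PLIN2, and ANGPTL4 with PLIN2.

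The muscle form CPT1B held nearly all of the remaining CPT1 transcript. CPT1A was 83.0% of the summed CPT1 FPKM in I/R+DMSO and 82.9% with Rk2 (exact two-sided permutation p = 1.0), and the neuronal form CPT1C was below the filter. The log2 fold change of CPT1B was 0.47 (95% interval -0.34 to 1.28, edgeR), with exons shared with the readthrough gene CHKB-CPT1B.

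The beta-oxidation enzymes ACADM and HADHA did not pass the test, and the data bound the difference more tightly for HADHA than for ACADM. ACADM, the dehydrogenase of medium-chain acyl-CoA, had normalized CPM of 43.35, 42.16, 40.28 and 45.51 in I/R+DMSO and 46.01, 35.14, 38.25 and 46.55 in I/R+Rk2, where replicates 2 and 3 were below and replicates 1 and 4 above all I/R+DMSO libraries. The log2 fold change was -0.04 (95% interval -0.27 to 0.18, adjusted p = 0.785, edgeR), an interval that takes in the -0.26 of CPT2. HADHA, the alpha subunit of the trifunctional protein that acts on long-chain acyl-CoA, had 208.2, 201.0, 203.1 and 197.4 CPM in I/R+DMSO and 210.9, 204.9, 204.8 and 198.6 in I/R+Rk2. The groups overlapped almost wholly, and the log2 fold change of 0.02 had the narrowest interval of the 8 genes, from -0.06 to 0.10 (adjusted p = 0.767, edgeR). The signs of both small differences changed in some alternatives. HADHB, the beta subunit of the same protein, had a log2 fold change of -0.06 (95% interval -0.15 to 0.02, edgeR), and ACADVL, the very long-chain dehydrogenase, one of -0.05 (-0.18 to 0.09).

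**Figure D3:**
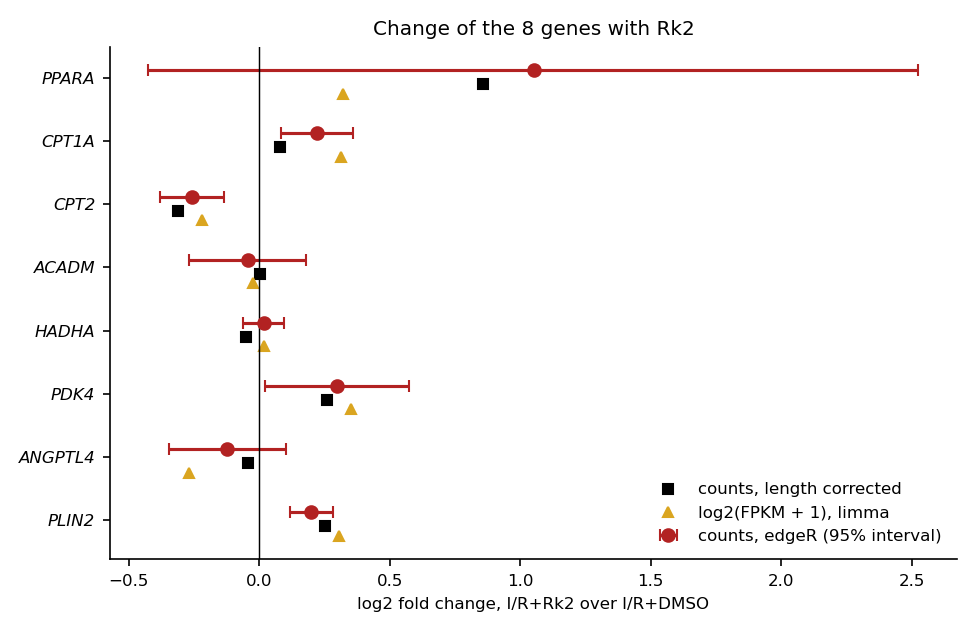
Log2 fold change of I/R+Rk2 over I/R+DMSO (horizontal axis) for the 8 genes: edgeR on counts with its 95% interval (circles), edgeR after gene length correction (squares) and limma on log2(FPKM + 1) (triangles). The intervals of CPT1A, CPT2, PDK4 and PLIN2 do not cross 0, that of PPARA runs from -0.43 to 2.53, and CPT1A moves to 0.08 after length correction.

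PDK4, the kinase that turns off pyruvate dehydrogenase in fasting, was expressed at a low level. Its normalized CPM was 4.781, 5.04, 3.747 and 4.551 in I/R+DMSO and 5.309, 5.194, 5.446 and 6.375 in I/R+Rk2, from 68 to 162 counts per library. The groups did not overlap in CPM and did in FPKM (exact two-sided permutation p = 0.0571 for FPKM). The log2 fold change was 0.30 with a 95% interval from 0.02 to 0.58, and the adjusted p of 0.118 in edgeR did not pass. Among the 4 PDK genes PDK4 held 12.1% of the summed FPKM in I/R+DMSO and 12.5% with Rk2 (exact two-sided permutation p = 0.914). PDK1, the form that low oxygen induces, was the main form with 59.7% and 68.8%. PDK1 had a log2 fold change of 0.25 (95% interval 0.06 to 0.44, edgeR adjusted p = 0.0679). It passed in 1 of 13 alternatives of tool, scaling and filter, DESeq2 (0.25, adjusted p = 0.0402), and in 1 of 9 fits with libraries left out. On log2(FPKM + 1) with limma the value for PDK1 was 0.65 (adjusted p = 0.0791). The log2 fold changes of the other 2 forms follow. In edgeR they were -0.09 (95% interval -0.58 to 0.41) for PDK2 and -0.20 (-0.53 to 0.13) for PDK3.

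ANGPTL4 had normalized CPM of 12.32, 10.98, 14.49 and 12.25 in I/R+DMSO and 10.98, 11.71, 12.53 and 10.78 in I/R+Rk2. The groups overlapped, and the means were 12.51 ± 1.46 and 11.5 ± 0.795 (SD, n = 4 each). The log2 fold change was -0.12 (95% interval -0.35 to 0.10, adjusted p = 0.417, edgeR). It was negative in every alternative. In FPKM the means were 7.88 ± 0.767 and 6.39 ± 1.01 (SD, n = 4 each; exact two-sided permutation p = 0.0857).

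PLIN2, the coat protein of lipid droplets in liver, had the smallest adjusted p of the 8 genes. Its normalized CPM was 899.2, 862.3, 858.2 and 841.9 in I/R+DMSO and 1018.0, 1002.0, 992.3 and 963.2 in I/R+Rk2. Every I/R+Rk2 library was above every I/R+DMSO library, and the spread within each group was small. The means were 865.4 ± 24.2 and 993.7 ± 22.9 (SD, n = 4 each), a rise of 14.8% (log2 fold change 0.20, SE 0.0354, 95% interval 0.12 to 0.28, edgeR adjusted p = 0.00821). PLIN2 passed the test in all 13 alternatives of tool, scaling and filter, where its log2 fold change lay between 0.17 and 0.31, and in all 9 in which libraries were left out. In FPKM the groups were also separate, at 415.9 to 436.6 with DMSO and 512.2 to 536.6 with Rk2, a fold of 1.238. The implied gene length of PLIN2 was 1970 to 2015 bases with DMSO and 1868 to 1931 with Rk2.

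PLIN2 was most of the perilipin transcript in both groups. It held 86.7% ± 2.83 of the summed FPKM of PLIN1 to PLIN5 in I/R+DMSO and 89.0% ± 3.25 in I/R+Rk2 (SD, n = 4 each; exact two-sided permutation p = 0.343). PLIN3, the widely expressed perilipin, was next with 12.7% and 10.4%, and PLIN1, the form of fat cells, was below the filter. The log2 fold change of PLIN3 was -0.07, with a wide 95% interval from -0.81 to 0.67 (edgeR). Those of PLIN4 and PLIN5 were 0.25 (-0.002 to 0.51) and 0.06 (adjusted p = 0.885, edgeR).

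**Figure D4:**
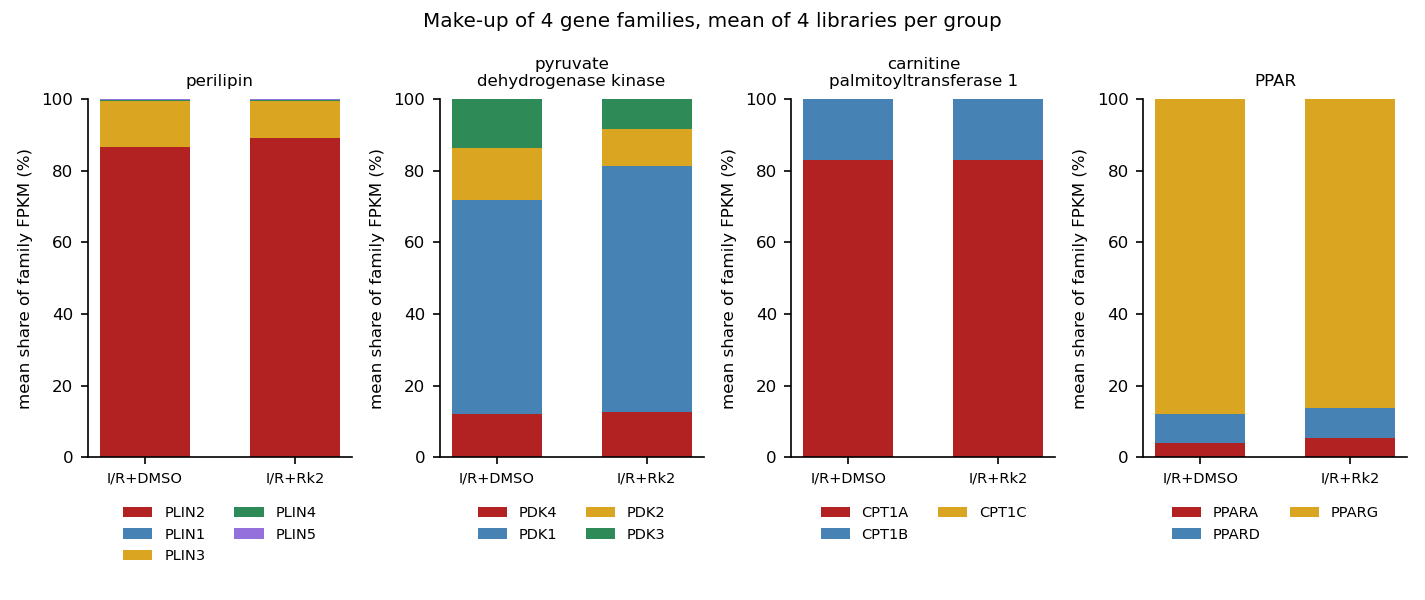
Mean share of the summed FPKM (vertical axis, %) held by each gene of 4 families in I/R+DMSO and I/R+Rk2, 4 libraries per group, with the gene described here in red. PLIN2 (86.7% and 89.0%) and CPT1A (83.0% and 82.9%) are the main forms of their families, and PDK4 (12.1% and 12.5%) and PPARA (3.94% and 5.32%) are minor forms.

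For each gene that passed the test, the 2 genes with the most similar pattern over the 8 libraries were found among 9208 genes, by the root mean square difference of log2 CPM centred on the I/R+DMSO mean. For PLIN2 they were TSPAN13 and RPN1 (0.0201 and 0.0226), for CPT1A CIC and SREBF2 (0.0296 and 0.0357), and for CPT2 TBCC and MT-ATP6 (0.0397 and 0.0405). SREBF2 encodes a transcription factor of cholesterol synthesis, RPN1 a subunit of the oligosaccharyl transferase and MT-ATP6 a subunit of the mitochondrial ATP synthase.

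Around the 8 genes, 9 lists held 156 other genes of the same pathways, of which 131 were tested. In edgeR 21 were called higher and 9 lower in I/R+Rk2, and their median log2 fold change was 0.03. The called share was 22.9%, beside 18.2% of all tested genes. The receptor partners and cofactors of the PPARs had 6 genes called higher of 22 tested and 0 lower (also 0 at an unadjusted p, in DESeq2, in voom and in limma on FPKM), with a median of 0.18. DESeq2 and voom also called 6 higher, the length-corrected fit 4 and limma on log2(FPKM + 1) 1. The largest difference in this list was that of PPARGC1A (PGC-1 alpha, a coactivator of PPARA and of mitochondrial genes). It had 13 to 34 counts with DMSO and 57 to 74 with Rk2, and its log2 fold change was 1.18 (SE 0.300, edgeR adjusted p = 0.0299). LPIN1, a phosphatidate phosphatase that also coactivates PPARA, rose from 9.75 ± 0.559 to 15.3 ± 1.09 CPM (SD, n = 4 each). NCOA2, a steroid receptor coactivator, had a log2 fold change of 0.51. After length correction PPARGC1A did not pass (log2 fold change 0.98, adjusted p = 0.071), and LPIN1 and NCOA2 did (0.56 and 0.30). PPARGC1A passed in 3 of the 9 fits with libraries left out, at log2 fold changes from 0.94 to 1.39, and LPIN1, whose exons overlap AC012456.2 on the opposite strand, in all 9. RXRA, the partner of PPARA, had a log2 fold change of 0.11 (95% interval -0.02 to 0.23), and -0.05 after length correction. Every tested gene of this list except PPARG, ESRRA and HDAC3 had a lower log2 fold change after that correction. The median of 0.18 is not corrected for gene length.

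The other target genes of PPARA were mixed. Of 32 tested, 6 were called higher and 1 lower, with a median log2 fold change of 0.06. Among the higher were SLC25A42 (mitochondrial carrier of coenzyme A, 0.49), GK (glycerol kinase, 0.47) and SCD (stearoyl-CoA desaturase, 0.33), which after length correction were 0.45, 0.44 and 0.16, each with an adjusted p below 0.05. Exons of GK overlap the antisense gene GK-AS1. TXNIP, which binds thioredoxin and limits glucose uptake, was the gene called lower, at a log2 fold change of -0.69 (edgeR adjusted p = 0.000203) and means of 56.8 ± 2.08 and 35.2 ± 1.42 CPM (SD, n = 4 each). FGF21, the fasting hormone of liver, had 0 counts in all I/R+DMSO libraries and at most 3 in any I/R+Rk2 library.

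For fatty acid oxidation and its supply the called shares lay on both sides of the 18.2% of all tested genes, at 9.52% for mitochondrial beta-oxidation, 23.5% for peroxisomal beta-oxidation and 35.7% for uptake and activation. Of 21 tested mitochondrial beta-oxidation genes, ETFDH (electron transfer to ubiquinone) was called higher at 0.26 and ECHS1 (enoyl-CoA hydratase) lower at -0.21, and the median log2 fold change was -0.03. Of 17 peroxisomal genes, 2 were called higher, ABCD3 (0.17) and HSD17B4 (0.15), and 2 lower, among them the thiolase ACAA1 (-0.29). In the ketone body list 1 of 6 was called, AACS, which uses acetoacetate for lipid synthesis, at 0.33. Of 14 tested genes in the list for uptake and activation of fatty acids, ACBD3 (0.49), ACSL4 (0.38) and ACSL1 (0.27) were called higher. The 2 last are acyl-CoA synthetases. ACBD3, a Golgi protein with an acyl-CoA binding domain, is not an uptake or activation enzyme and is counted in the 35.7%. FABP5, a fatty acid binding protein, and SLC27A3, of the fatty acid transport family, were called lower at -0.41 and -0.39. After length correction the calls of ACSL1 (0.19, adjusted p = 0.0999), SLC27A3 (-0.34, adjusted p = 0.056), ABCD3 (0.11, adjusted p = 0.0895) and AACS (0.25, adjusted p = 0.113) were lost. Of the 9 fits with libraries left out, ECHS1 passed in 0, ETFDH, ACSL1 and AACS in 1, ABCD3, HSD17B4 and SLC27A3 in 2 and ACAA1 in 6, while ACBD3, ACSL4 and FABP5 passed in all. Exons of ACSL4, HSD17B4, SLC27A3 and ACAA1 overlap those of another gene on the same strand, and those of ACBD3, ETFDH, FABP5 and ACAA1 on the opposite strand.

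Lipid droplet genes beside PLIN2 were called in both directions. PNPLA3, a droplet lipase, had the largest difference of the 16 tested, with 8.83 ± 1.27 CPM with DMSO and 15.3 ± 1.69 with Rk2 (SD, n = 4 each), or 0.79 on the log2 scale (edgeR adjusted p = 0.00519). LIPA, the acid lipase of lysosomes, was called higher at 0.24. PNPLA2, the lipase that starts the breakdown of stored triglyceride, was called lower at -0.25 (56.6 ± 2.70 to 47.5 ± 2.84 CPM, SD, n = 4 each; adjusted p = 0.0236, edgeR), as were MGLL, the last lipase of that path, at -0.16 (adjusted p = 0.0266) and PNPLA4 at -0.42 (adjusted p = 0.0312). PNPLA4 was not called after length correction (-0.34, adjusted p = 0.0713) and turned to positive values on FPKM. With libraries left out PNPLA2 passed in 5 of 9 fits and MGLL and PNPLA4 in 4, PNPLA3 and LIPA passed in all 9, and limma on log2(FPKM + 1) called 0 of the 3 lower. Exons of PNPLA3 overlap another gene on the same strand, and those of PNPLA2 and LIPA on the opposite strand. G0S2, an inhibitor of PNPLA2 named here after its values were seen, was below the filter, with 2 to 5 counts with DMSO and 7 to 20 with Rk2.

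In the list around PDK4, 1 gene of 11 was called in edgeR, DLAT, the acetyltransferase of pyruvate dehydrogenase, at 0.24 (0.15 after length correction). DLAT passed in 6 of the 9 fits with libraries left out, and its exons overlap PIH1D2 on the opposite strand. In the list around ANGPTL4, 0 of 8 tested genes were called in edgeR, and 1 had an unadjusted p below 0.05. DESeq2 called 0. The fits with voom, with limma on log2(FPKM + 1) and with length correction each called 1, higher in I/R+Rk2. ANGPTL8 had a log2 fold change of -0.34 (95% interval -0.92 to 0.24). LPL, the lipase that ANGPTL4 inhibits, was listed at 0 FPKM in every library.

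**Figure D5:**
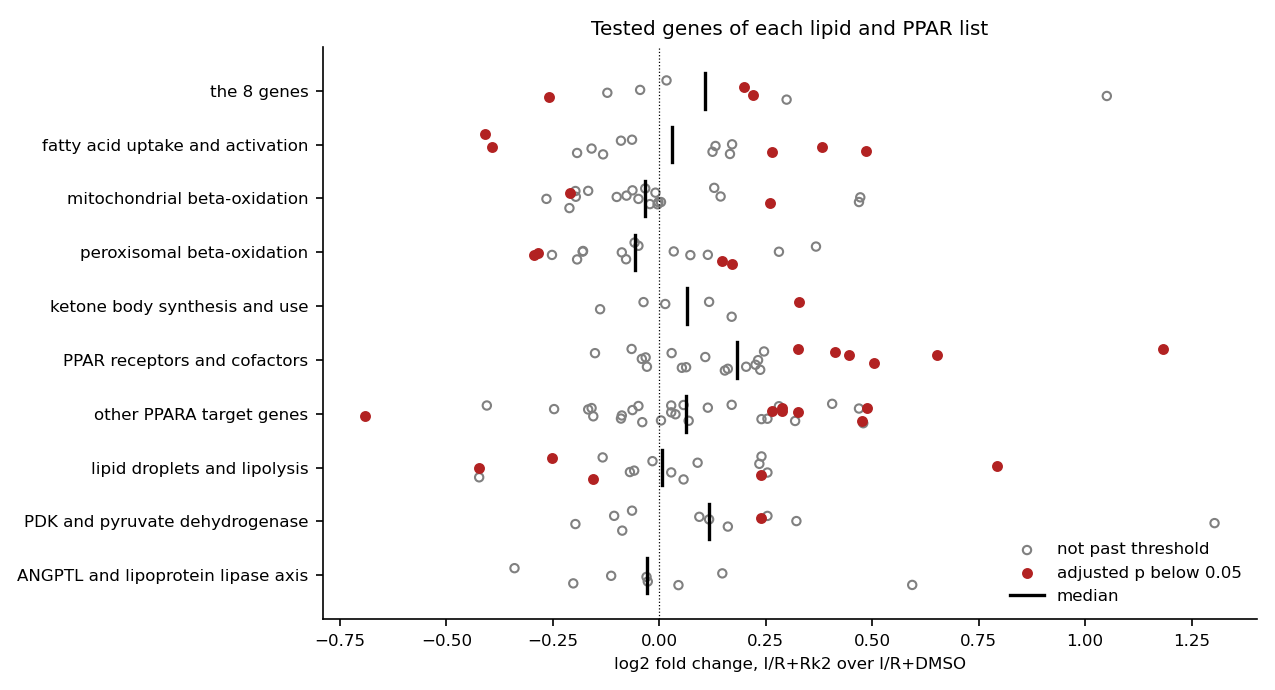
Log2 fold change of I/R+Rk2 over I/R+DMSO (horizontal axis) for each tested gene of the 8 genes described here and of the 9 lists around them, with called genes filled in red and the median of each list as a black bar. The PPAR receptors and cofactors have 6 filled points, all above 0 and with PPARGC1A at 1.18, and their median is 0.18, while those of the other lists of other genes lie between -0.06 and 0.12. The values drawn are not corrected for gene length.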

How the data were processed

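The authors made the libraries with the MGIEasy kit from 250 ng of RNA and sequenced them on a BGISEQ instrument. Their processing notes name FastQC 0.11.5, HISAT2 2.2.1, StringTie 1.3.3 and the hg38 build. The read counter, its annotation and its strand setting are not given in the sources used here. The authors deposited raw counts per gene, without normalization, and FPKM, scaled by gene length and library size. A pooled total column was not used. Symbols turned into dates (22 in the count table, 0.111% of counts) were left out.

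Counts were filtered to the 12910 genes that reached 10 counts in 4 or more libraries, TMM-normalized and tested with edgeR 4.0.16 (robust quasi-likelihood test, condition only) in R 4.3.3, with Benjamini-Hochberg adjustment over all of them. Levels between genes were compared in FPKM. For single values, two-sided permutation tests enumerated every split exactly, and 0.0286 is their smallest p with 4 libraries against 4. Nothing in the labels says that the libraries came from separate cultures, so p-values measure the spread between these samples, which may be technical. Alternatives were DESeq2 1.42.0, limma 3.58.1 (voom with sample weights, and log2(FPKM + 1) or log2(FPKM + 0.1) for genes with a mean of at least 0.5 FPKM, and without that filter), edgeR without the robust option, upper quartile or library size scaling, no filter or a mean of at least 50 counts, a loess correction for gene length (span 0.5, length from counts and FPKM), a replicate block, and leaving out each library. Leaving out replicate 1 of both groups together was chosen after seeing the data.

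The 8 genes and the lists were chosen with earlier results of these data known. Genes are named by rule: the 8, their families, up to 3 called genes per list and direction with the largest change and a mean of at least 1 CPM, a fixed set (FGF21, HADHB, ACADVL, RXRA, PPARGC1A and ANGPTL8 among them) whatever their values, and the 2 nearest patterns with a mean of at least 10 CPM. Some genes that the rule includes are not reported here. In simulated data for this comparison, with 12801 genes, the edgeR test recovered 86 of 100 genes changed by 1 on the log2 scale and 96 of 100 changed by 2, with 8 false calls. Smaller changes, such as those of PLIN2, CPT1A and CPT2, were not simulated, nor was a trend with gene length.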

Additional observations from a re-analysis of the deposited data

Results flagged for a closer look

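In all, 56 sets of 4 values were examined by group, among them normalized CPM, FPKM and implied lengths of the 8 genes. Of these, 4 held a library whose gap to its nearest neighbour was a larger share of the range than Dixon's 95% limit for 4 values. Chance passes that limit in about 1 of 20 such sets. The normalized CPM of PPARA in I/R+Rk2 was 3.605 in replicate 1 and 23.72 to 26.41 in the others, a gap of 0.882 of the range. The length that counts and FPKM imply for PPARA was 1822 bases in the same library and 10730 to 10960 in the other 3. CPT1A was low in I/R+DMSO replicate 1 on both scales, with a normalized CPM of 124.7 against 145.7 to 147.7 and an FPKM of 20.32 against 25.3 to 25.36. That library also stood apart on the second principal component, and its part in the CPT1A result is given by the value without it, a log2 fold change of 0.17 for CPT1A (adjusted p = 0.0179, edgeR) against 0.22 with it.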

How the results depend on the processing

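PLIN2 passed the test in all alternatives run, and the direction of PLIN2, CPT1A and CPT2 held in all 22. The number of the 8 genes called higher was 2 in edgeR and 1 with upper quartile scaling, on unfiltered log2(FPKM + 1), after gene length correction and after length correction with the replicate block, and 1 to 2 with each library left out, CPT1A being the gene lost. The number called lower was 1, and 0 in the 3 limma fits on FPKM. It stayed 1 with each library left out. Of the other list genes, 21 were called higher in edgeR, 12 with limma on log2(FPKM + 1) or log2(FPKM + 0.1), 8 without a filter on FPKM, 13 with the replicate block and length correction, and 11 to 20 with each library left out, 11 without I/R+Rk2 replicate 2 or 4. The number called lower was 9, then 2 in each of the 3 fits on FPKM, 3 without replicate 1 of both groups, and 2 to 8 with each library left out, with 5 without replicate 3 of I/R+DMSO, 5 without replicate 1 of I/R+Rk2 and 2 without I/R+Rk2 replicate 4. Pairs without overlap were 9, and 9 to 17 with each library left out, 17 without I/R+Rk2 replicate 1, where the test has 4 libraries against 3. PNPLA4 changed sign on FPKM, to 0.13 with a pseudocount of 1, with and without the filter, and to 0.18 with 0.1. The cause was not tested for any of these. A replicate block gave 1815 calls over all genes against 2352 and left CPT1A, CPT2 and PLIN2 called. Replicate numbers did not mark paired samples (correlations of deviations -0.0095 to 0.0845, with 1 of 4 numbers correlating best with its own). PDK4 and PPARA had as few as 68 and 76 counts in a library, and PPARA (SE 0.638) varied more between libraries than PDK4 (SE 0.120).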
